A study of Mus musculus with 12 samples.

Results

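The cytosolic ribosomal protein genes are the genes for the protein components of the cell's main ribosomes, and 80 of the 17202 gene rows in the table of cerebral cortex expression belonged to them. They were chosen by name alone, as the protein coding rows whose symbol is Rpl or Rps with a number and at most 1 letter, Rplp0, Rplp1, Rplp2, Rpsa, or a numbered symbol ending in l or l1. The 80 genes divided into 31 of the small (40S) subunit and 49 of the large (60S) subunit. The naming rule does not take in Rps3a1, Rpl36al and Rps27rt, nor Fau, whose ribosomal protein is made as a fusion to a ubiquitin-like protein. The samples were frozen cortices of 12 mice on a C57Bl6 background, 3 in each of 4 groups. WT mice and CD mice, which carry a heterozygous deletion from Gtf2i to Fkbp6 and serve as a model of Williams–Beuren syndrome, were given either vehicle (VEH-WT and VEH-CD, called untreated in the labels, drinking water with DMSO according to the study's methods) or verapamil and curcumin together in the drinking water (VERCUR-WT and VERCUR-CD). The labels give curcumin at 60 and verapamil at 10 mg/kg/day, a start at 8 weeks, 1 month of drinking and an age of 16 weeks, while the study's methods give a lower verapamil dose and an earlier end. The study used male mice, and its CD line was crossed with a Thy1-YFP reporter line that labels pyramidal neurons.

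A ribosome is built from ribosomal RNA and one copy of most ribosomal proteins, so cells make these proteins in matched amounts. Most of their mRNAs are short, abundant and begin with a C followed by a run of pyrimidines, the TOP motif, through which translation of the whole set is controlled together. In neurons, ribosomes also lie in dendrites and axons, and local protein synthesis there is known to contribute to synaptic plasticity. Because these were bulk samples, a lower level from fewer cells of a type cannot be told apart from less RNA per cell.

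The listed start sites were searched for the TOP motif. Promoter sequence from RefSeq on GRCm38.p6 was matched by symbol for 60 of the 80 genes. A start C followed by at least 4 C or T bases began exactly at a listed start base for 13 of the 60 (21.7%). The same held for 364 of 12197 measured genes with a listed start (2.98%). A tract a few bases from the listed start was not counted. Rpl27a, Rpl7a and Rps9, for example, had a T as listed start within a run of C and T bases. The 13 is therefore no count of the members with a TOP motif. The following 30-base windows hold 15 bases before the start and 15 from the start on, with the pyrimidine tract in capitals, for Rps6, a small-subunit protein known for its phosphorylation, for Rps27, and for Rps15a and Rps21, which followed the other members less closely than most.
Rps6: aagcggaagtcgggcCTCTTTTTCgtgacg
Rps27: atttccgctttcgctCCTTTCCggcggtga
Rps15a: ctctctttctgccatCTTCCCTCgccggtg
Rps21: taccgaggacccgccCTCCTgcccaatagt
They lie at chr4:86857353-86857382, chr3:90213634-90213663 and chr7:118116133-118116162, all on the minus strand, and at chr2:180257364-180257393 on the plus strand. A few copies at lower levels are also shown, with only the start base in capitals: Rpl7l1, Rps27l (the first of its listed starts) and Rpl22l1.
Rpl7l1: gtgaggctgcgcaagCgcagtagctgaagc
Rps27l: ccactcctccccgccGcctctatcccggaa
Rpl22l1: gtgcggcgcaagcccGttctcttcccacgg
Their windows are chr17:46782642-46782671 on the minus strand, chr9:66946071-66946100 and chr3:28805493-28805522 on the plus strand, and none holds the tract at its start base. The same held for 47 of the 60 members, these copies included. In Rpl22l1 a run of C and T bases directly follows the listed start base. In the full window of 300 bases, searched on both strands, CCGGAAG, the core of an ETS site, was found for 24 of 60 members (40%) and 17.5% of all genes, CTTTCC, which can overlap the tract, for 51.7% and 30.6%, AAGATGGC, a YY1-type core, for 10% and 4.66%, GGGCGG for 61.7% and 65.9%, and TATAAA for 11.7% and 9.17%. The 13 members with a tract at the listed start base had a median correlation with the members' median level of 0.951, over 12 mice. The 47 without one at that base had 0.970.

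The libraries held between 40287600 and 56480600 reads counted to genes, as recovered from the normalized values. Across the 19 measured genes of the deleted region, the median level relative to the VEH-WT mean was between 0.468 and 0.530 in the 6 CD mice and between 0.959 and 1.04 in the 6 WT mice, so every library matched its genotype label. Markers of cortical excitatory neurons summed to between 277795 and 348916 normalized counts per mouse. Markers of striatal neurons, which a cortical dissection can include, summed to between 13396.4 and 26442.1 in VEH-WT, 12527.2 and 28532 in VEH-CD, 6833.35 and 29705.8 in VERCUR-WT, and 7400.32 and 21780 in VERCUR-CD, with none of the 5 markers at 0.

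Ribosomal protein mRNAs were abundant and, apart from a few copies, similar in level. They made up between 1.17% and 1.54% of all normalized counts in a mouse. The median member had a mean of 7861 normalized counts, which was higher than 92.3% of all gene rows, and 78 of 80 exceeded 1000. Per kilobase of transcript, 72 of the 80 lay between 5000 and 20000 normalized counts. The highest per-kilobase levels were those of Rplp1 (31940), an acidic protein of the stalk that recruits elongation factors, Rps15 (26753), Rpl9 (18955), Rps29 (18503) and Rpl26 (18316). The lowest were those of Rpl3l (7.72), a copy of Rpl3 known from skeletal muscle and heart, Rps27l (563), a p53-induced copy of Rps27, Rpl7l1 (708), a relative of Rpl7 with a role in assembly of the large subunit, Rps15a (1152) and Rps20 (1487). The last 2 values are understated because the annotated transcripts used for length were unusually long, 5130 and 3706 nt. Rpl3l, at a mean of 10.6 normalized counts, is close to the filter of a mean of 10.

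**Figure D1:**
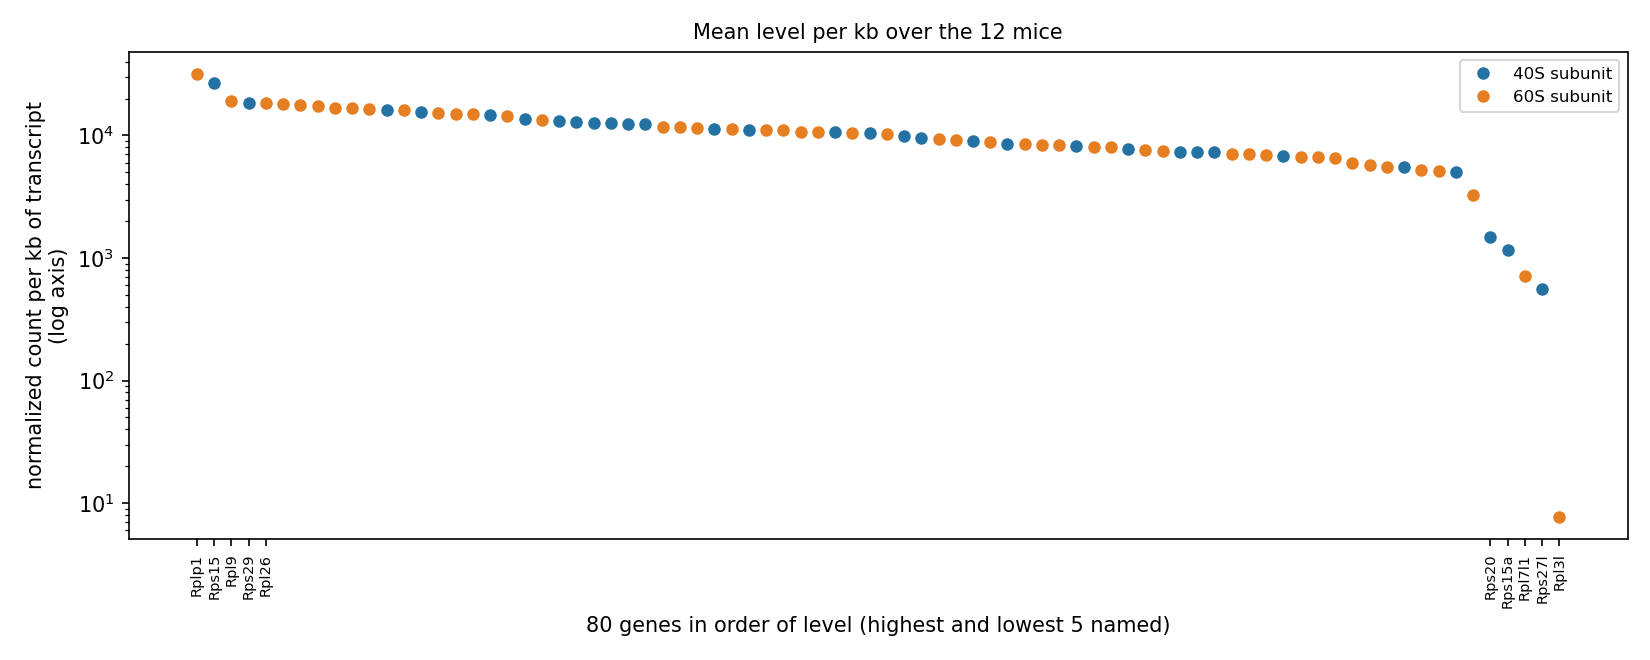
Mean normalized count per kilobase of transcript over the 12 mice, on a log axis, for each of the 80 genes in order of level, blue for 40S and orange for 60S, with the highest and lowest genes named. All but a few genes sit within a narrow band, and Rpl3l stands far below at 7.72.

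The members rose and fell together from mouse to mouse, with the same pattern in both subunits. Each gene's log2 level, log2(normalized count + 1), was set against its own mean over the 12 mice. The members' median deviation was 0.00031, -0.14 and -0.059 in the 3 VEH-WT mice, and 0.16, -0.14 and 0.13 in the 3 VEH-CD mice. In the 3 VERCUR-WT mice it was -0.093, -0.014 and 0.12, and in the 3 VERCUR-CD mice 0.14, -0.16 and 0.057. The groups overlapped throughout, and every group other than VEH-WT held mice clearly above and clearly below 0. In VEH-CD mouse 2 and VERCUR-CD mouse 2, 0 of 80 members were above their own mean, whereas all 80 were above it in VERCUR-WT mouse 3 and VERCUR-CD mouse 1. The median deviations of the 40S and 60S genes correlated with the median of all members at r = 0.999 each, over the same 12 mice. Of the 80 members, 72 correlated with the members' median at r above 0.9, a description over 12 mice in which every point shares its library with all genes. The typical member had an SD over mice of 0.12 on the log2 scale, which fell to 0.036 once the members' median of each mouse was subtracted. The typical spread between mice of a group was close to that of other genes, with a median within-group SD of 0.13 for the members and 0.14 for all genes tested.

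The genes that followed the others least were copies, and a few genes that are not copies followed less closely than most. Rpl7l1 (r = 0.039), Rpl3l (r = 0.027) and Rps27l (r = 0.59) stood apart from the members' median, and Rps15a (r = 0.82), Rps21 (r = 0.88), Rpl22l1 (r = 0.89), Rpl22 (r = 0.89) and Rpl41 (r = 0.898) followed it less closely than the remaining 72. Among the parents of the copies, Rpl7 was at r = 0.95, Rpl3 at r = 0.96 and Rps27 at r = 0.98, while Rpl22 was close to its copy Rpl22l1. Within groups, Rpl3l (SD 0.39, near the filter), Rps21 (0.21), Rps27 (0.18), Rps29 (0.17) and Rpl31 (0.17) varied most on the log2 scale, and Rpl7l1 (0.047) and Rps15a (0.056) least. Reads of processed copies were a small part of the signal, since 62 further rows with ribosomal protein names summed to between 0.921% and 1.18% of the members' total, but how reads shared with such copies were counted is not given in the sources used here, and 16 members overlap another listed gene.

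The comparison of VEH-CD with VEH-WT asks how the deletion changes the cortex. No ribosomal protein gene was a DEG (a differentially expressed gene, taken as an adjusted p under 0.05 with an increase or a decrease of over 25%), by limma over all genes tested, against 44 of 17111 genes (0.257%), and the lowest adjusted p of a member was 0.44. At an unadjusted p under 0.05, 0 of 80 members passed, against 11.8% of all genes tested. The direction was nevertheless shared, with 78 members at a higher and 2 at a lower estimate, against 49.3% of all genes tested higher. The members' median log2 fold change was 0.11 (8.0% higher), against a median of -0.003 over all genes tested. The SE of a member's log2 fold change was 0.098 at the median. Since the 78 genes move together by mouse, their number does not add replicates, and this direction rests on the 3 mice of each group.

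The highest estimates of log2 fold change in VEH-CD were those of Rpl35a (0.17, SE 0.11), Rpl22l1 (0.17, SE 0.087), Rps2 (0.17, SE 0.080), Rps14 (0.17) and Rpsa (0.17), none past the test. Rps2, a protein at the mRNA entry side of the small subunit, was at 15886, 14539 and 15103 normalized counts in VEH-WT and 18113, 15347 and 17788 in VEH-CD. One VEH-CD mouse lay within the VEH-WT range and the other two above it. Rpsa, the laminin receptor precursor that doubles as a 40S protein, was at 17773, 15804 and 16756 in VEH-WT and 20299, 16555 and 19778 in VEH-CD, again with 1 mouse inside the VEH-WT range.

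The lowest estimates were those of Rpl3l (-0.18, SE 0.35), Rpl7l1 (-0.11, SE 0.057), Rpl28 (0.044), Rpl7a (0.045) and Rps28 (0.048). Rpl7l1 (GRCm38, chr17:46773907-46782672, minus strand) was at 1938, 1918 and 1943 normalized counts in VEH-WT and 1746, 1817 and 1798 in VEH-CD, so that every VEH-CD mouse lay below every VEH-WT mouse. It was the only member whose groups did not overlap (1 of 80 lower, 0 higher), against 11.4% of all genes tested lower and 9.28% higher, and its adjusted p was 0.46.

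The lists of genes by site in the ribosome each had a small positive median estimate. The 3 stalk genes Rplp0, Rplp1 and Rplp2 had a median log2 fold change of 0.13, the 2 partners of 5S ribosomal RNA, Rpl5 and Rpl11, 0.16, the 8 genes of the exit tunnel 0.091, and the 8 of the decoding centre and mRNA path 0.12. The 18 genes mutated in Diamond-Blackfan anaemia, an inherited failure of red cell production, had a median of 0.11. None of these was a DEG in either direction. Rps6 was at 10770, 10196 and 10819 normalized counts in VEH-WT and 12367, 10154 and 12070 in VEH-CD, and Rplp1 at 15692, 14262 and 14842 against 18038, 13885 and 17806. For both genes, VEH-CD mouse 2 was the lowest of the 6 mice.

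The size of this difference depended on single mice. Without VEH-CD mouse 2 the members' median was 0.21 on the log2 scale. In that fit 41 of 80 members passed an unadjusted p under 0.05, against 2504 of 17111 genes tested. No member was a DEG, and their lowest adjusted p, by limma, was 0.22. Without VEH-CD mouse 1 the median was 0.054, and without VEH-CD mouse 3 or VEH-WT mouse 2 it was 0.071.

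In mice given VERCUR, the members' estimates in the same genotype comparison fell on both sides of 0. VERCUR-CD against VERCUR-WT had 46 members higher and 34 lower, against 51.6% of all genes tested higher. The members' median was 0.011 on the log2 scale, with 0 DEGs among them, against 0.146% of all genes tested. None passed an unadjusted p under 0.05 (4.1% of all genes tested), and no member's groups separated, against 3.91% of all genes higher and 3.83% lower. Rps6 was at 10163, 10778 and 11878 normalized counts in VERCUR-WT and 12212, 9902 and 11412 in VERCUR-CD, and the groups overlapped. With the transcript length trend described further on removed, 62 members were higher and 18 lower, at a median of 0.034. The members' median turned to -0.050 without VERCUR-CD mouse 1 and was 0.090 without VERCUR-CD mouse 2. The extremes were Rpl30 at 0.12, Rps21 at 0.095, Rpl5 at 0.086, Rpl22l1 at 0.082 and Rps4x at 0.074 on the high side, and Rpl3l at -0.55, Rpl41 at -0.10, Rplp1 at -0.080, Rpl36 at -0.079 and Rpl13 at -0.075 on the low side. The interaction of genotype and treatment, which tests whether the 2 genotype differences differ, called 0 members (0.0% of all genes), with a median of -0.10, a lowest adjusted p of 0.82 and 0 at an unadjusted p under 0.05, against 6.05% of all genes tested.

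The treatment changed no member by the test in either genotype. In WT mice, VERCUR against VEH gave 0 DEGs (0.0% of all genes) and a median log2 fold change of 0.065 over the members. Of these, 77 were at a higher and 3 at a lower estimate (49.5% of all genes tested higher). In CD mice, VERCUR against VEH gave 0 DEGs (0.0%) and a members' median of -0.036. Here 10 members were higher and 70 lower (50.8% of all genes tested higher). The WT median was 0.0086 without VERCUR-WT mouse 3, and the CD median turned to 0.051 without VERCUR-CD mouse 2 and to 0.013 without VEH-CD mouse 1. Markers of striatal neurons were at a lower estimate for 5 of 5 genes in both comparisons. The medians were -0.56 in WT and -0.62 in CD mice. Oligodendrocyte markers were also lower for 5 of 5 genes in both, with medians of -0.50 and -0.11. VERCUR-WT mouse 3 nevertheless had the highest median deviation of striatal markers of all mice (1.11). The oligodendrocyte deviation was -1.01 in VERCUR-WT mouse 1 and 0.41 in mouse 3. Microglial markers were higher for 5 of 5 genes in both (0.16 and 0.091). Astrocyte markers were higher for 4 and 5 of 5 genes (0.070 and 0.19), and endothelial markers for 4 of 5 in both (0.026 and 0.14). No other marker set had all 5 genes on the same side in both. None of these markers was a DEG, and their part in the members' estimates was not tested. No member passed an unadjusted p under 0.05 in either treatment comparison, against 5.22% and 3.54% of all genes tested. Rpl41, the shortest of the ribosomal proteins (chr10:128548114-128549305, minus strand), was the only member whose treatment groups did not overlap, at 9454, 8673 and 8955 normalized counts in VEH-WT and 9544, 10715 and 10629 in VERCUR-WT (log2 fold change 0.19, SE 0.10, adjusted p = 0.96). In WT mice 4.48% of all genes tested separated higher and 5.25% lower, and in CD mice 3.71% and 4.63%, where no member did.

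In WT mice the highest estimates after Rpl3l (0.42, SE 0.35) and Rpl41 were those of Rplp1 (0.15), Rps29 (0.14) and Rpl37 (0.13), and the lowest those of Rpl7l1 (-0.054), Rps27l (-0.020), Rpl7 (-0.001), Rpl22 (0.007) and Rps15a (0.014). In CD mice the highest were Rps21 (0.094), Rpl3l (0.046), Rpl23a (0.036), Rpl30 (0.026) and Rpl36a (0.026), and the lowest included Rpl6 (-0.099), Rpl13 (-0.091), Rpl29 (-0.087) and Rpl8 (-0.084). Rps21 was at 4844, 4603 and 4806 normalized counts in VEH-WT, at 5910, 4228 and 5662 in VEH-CD, at 4283, 5531 and 5953 in VERCUR-WT and at 5881, 4747 and 6160 in VERCUR-CD. The 3 VEH-WT mice lay close together, and each of the other groups spread from below or within the VEH-WT range to above it.

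**Figure D2:**
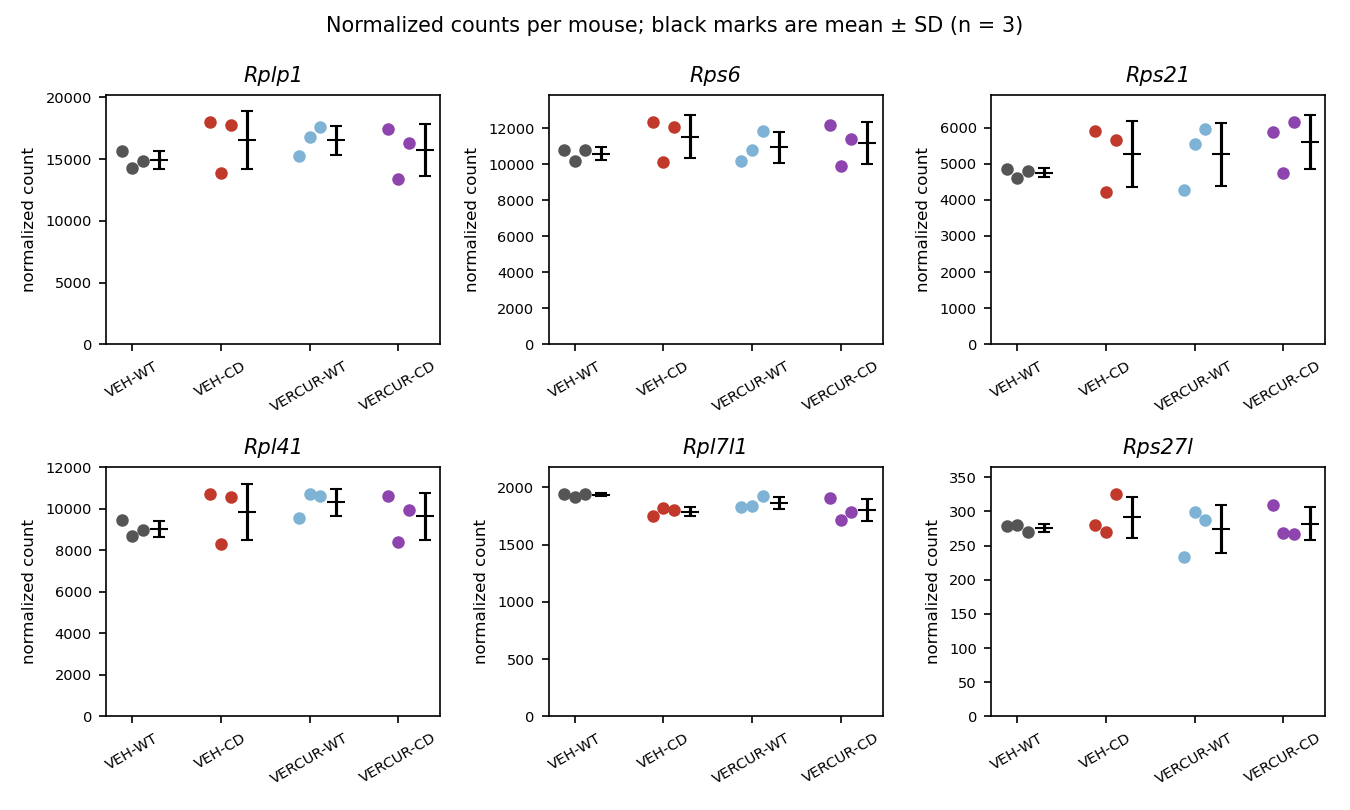
Normalized counts of 6 genes in each mouse by group, with black marks for mean ± SD (n = 3) and axes from 0. Rpl7l1 has the tight VEH-WT group at 1918 to 1943 above all VEH-CD mice, and in the other genes the groups overlap, except for Rpl41 between VEH-WT and VERCUR-WT.

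**Figure D3:**
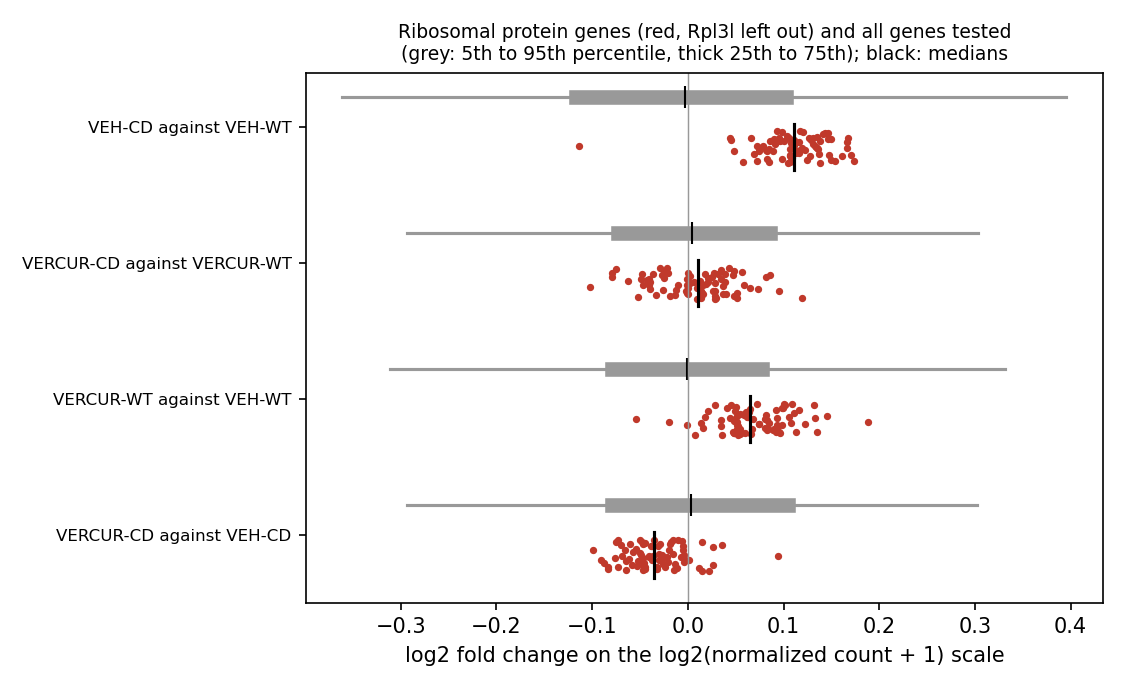
Log2 fold changes in 4 comparisons, with red points for the ribosomal protein genes other than Rpl3l, and grey lines for the 5th to 95th and 25th to 75th percentiles of all genes tested. For VEH-CD against VEH-WT the red points sit to the right of 0 around a median of 0.11, except Rpl7l1 at -0.11.

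The remaining comparisons were alike. VERCUR-CD against VEH-WT gave 0 DEGs among the members (0.199% of all genes) and 77 members higher and 3 lower, at a median of 0.072 on the log2 scale. Rpl22l1, a copy of Rpl22, was the 1 member at an unadjusted p under 0.05 (8.68% of all genes), with a log2 fold change of 0.19 (SE 0.087) and an adjusted p of 0.56. Without VERCUR-CD mouse 2, 14 members passed that unadjusted threshold, against 1952 of 17111 genes tested. Without VEH-WT mouse 2, VEH-WT mouse 3 or VERCUR-CD mouse 3 none did, against 896, 1298 and 955 of 17111 genes tested. Rpl22l1 was at 1754, 1638 and 1616 normalized counts in VEH-WT and 2036, 1735 and 1965 in VERCUR-CD. CD against WT over both treatments gave a median of 0.060 with 0 DEGs (0.321% of all genes) and 0 at an unadjusted p under 0.05 (9.64%). Without VEH-CD mouse 2, 16 members passed the unadjusted threshold, against 2039 of 17111 genes tested. Without VERCUR-CD mouse 2, 14 members did, against 2664 of 17111. VERCUR against VEH over both genotypes gave a median of 0.014 with 0 DEGs (0.0%) and 0 at an unadjusted p under 0.05 (2.96%). These comparisons share mice with one another.

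Other gene groups were set beside the members over the 12 mice. The 19 other TOP mRNAs, translation factors and related genes such as Eef1a1, Rack1 and Naca, had a median level that correlated with the members' at r = 0.97. Respiratory chain and ATP synthase genes (77, r = 0.91), mitochondrial ribosomal proteins (78, r = 0.82) and ribosomal protein pseudogenes (54, r = 0.77) also moved with them, whereas 36 ribosome biogenesis genes (r = 0.19) and the 15 genes of the mitochondrial genome (r = 0.15) did so little. In VEH-CD against VEH-WT the other TOP mRNAs had 18 of 19 at a higher estimate (median log2 fold change 0.086, 0 DEGs), mitochondrial ribosomal proteins 63 of 78 (0.083, 0 DEGs) and respiratory chain genes 72 of 77 (0.078, 0 DEGs), whereas ribosome biogenesis genes had 20 of 36 (0.006, 0 DEGs). The genes outside the rule most like the members' median included Pfdn5 (r = 0.99), Cox7a2l (0.98), Mrpl52 (0.97), Ftl1 (0.97), Pantr1 (0.97), Ramp1 (0.96), Gstk1 (0.96), Rps3a1 (0.95) and Atp5j (0.95), of which Rps3a1 encodes a ribosomal protein.

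Transcript length moved with the members' level. The members are short, with a median transcript of 768 nt against 2893 nt over all coding genes tested. The median of 169 other coding genes of at most 600 nt correlated with the members' at r = 0.93, that of 702 genes up to 1000 nt at r = 0.92, and that of 4435 genes over 4000 nt at r = -0.84. In VEH-CD against VEH-WT, 72.8% of these 169 genes and 70.5% of these 702 were at a higher estimate, at a median of 0.073 in each class. Of the 4435 long genes, 26.9% were higher, at a median of -0.079. In VERCUR-CD mouse 2 the short genes were at -0.16 and the long ones at 0.16, and in VEH-CD mouse 1 at 0.11 and -0.086. With a smooth trend on transcript length, drawn from genes that are no members, removed from each mouse, the range of the members' median over mice went from 0.32 to 0.16, and the members' median difference between VEH-CD and VEH-WT from 0.11 to 0.029 on the log2 scale. The same step took VERCUR-CD against VERCUR-WT from 0.011 to 0.034, with 62 members higher and 18 lower, beside 64 and 16 in the VEH comparison. It took VERCUR-WT against VEH-WT from 0.065 to 0.0088 and turned VERCUR-CD against VEH-CD to 0.0090 and the interaction to 0.0032. This setting was chosen after seeing the data. Markers of excitatory neurons (r = -0.84), striatal neurons (r = 0.49) and oligodendrocytes (r = 0.43) also moved with the members' median, and their part in the result was not tested. The share of counts from the mitochondrial genome (r = 0.067) and the number of reads counted (r = -0.14) moved with it little.

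**Figure D4:**
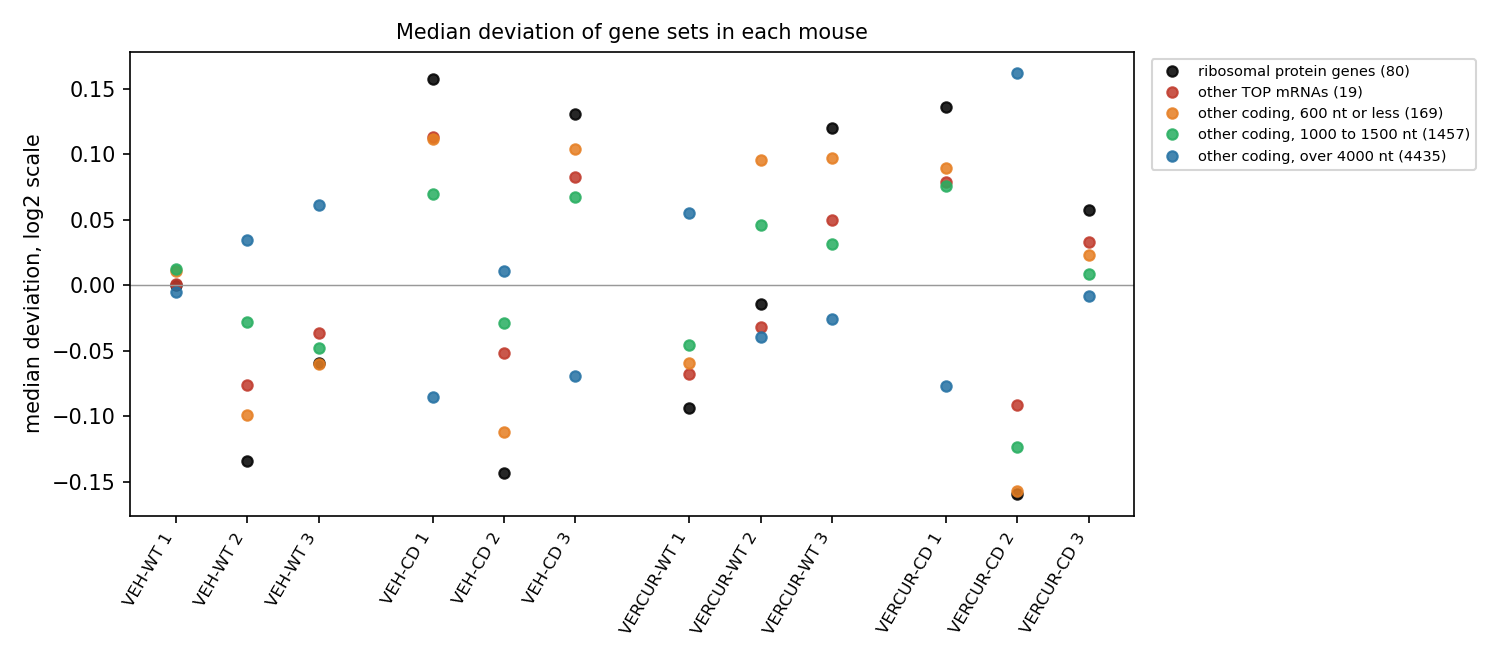
Median deviation from each gene's mean over the 12 mice, on the log2 scale, for the ribosomal protein genes, 19 other TOP mRNAs and other coding genes in 3 classes of transcript length. Short genes sit on the same side as the ribosomal protein genes in most mice, and genes over 4000 nt on the other side, up to 0.16 in VERCUR-CD mouse 2.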

How the data were processed

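Cortical RNA from 12 mice (3 per group) was sequenced by the authors as paired-end mRNA libraries on a HiSeq2000. Per the labels, reads were mapped with STAR 2.5.3a to GRCm38 and checked with FastQC. The counting program, annotation and normalization are not given in the sources used here. The deposited table holds normalized counts with decimal commas, and its low values were whole multiples of 1 read in every library, within 0.1 of a read. The deposited tables of the authors' own comparisons were not used. Counts were analysed as log2(normalized count + 1) with limma 3.58.1 (R 4.3.3), with an intensity trend, 1 mean per group and Benjamini-Hochberg adjustment over 17111 genes with a mean of at least 10. Genes were called at an adjusted p of 0.05 with an increase or decrease of over 25%, and on the adjusted p alone for the interaction. Fold changes are on that log2 scale and understate low genes. Lengths are those of the shortest principal transcript in GENCODE M21. On simulated data for VEH-CD against VEH-WT, the fit was tested over 17111 genes and called 61.5% of 200 changed genes. Of its 133 calls, 7.5% were unchanged genes. How well the fit finds shared shifts as small as the members' estimates, which lie below the fold threshold, was not tested. Nothing states whether mice were littermates or processed in batches, so p-values measure the spread between these mice. Genes were named by a rule on the largest and smallest changes, levels and spreads, and on roles. Members, lists and rule were chosen with earlier results of these data known. Alternatives tried were other pseudocounts, filters, scalings, samples in the fit, a replicate block, and leaving out each mouse. A few items are not reported here.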

Additional observations from a re-analysis of the deposited data

How the results depend on the processing

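No member was called in any of the 8 comparisons under any alternative run, including leaving out each mouse, so 0 is the count throughout. In the main setting, the members' estimates in VEH-CD against VEH-WT lay between -0.18 and 0.17 on the log2 scale. These fall short of the fold threshold, so the constant 0 says little about small shifts. The lowest adjusted p of a member over the alternatives, by limma, was 0.19. The planned edgeR and DESeq2 alternatives on recovered reads were not run. Voom weights on those reads, which called 39 genes in VEH-CD against VEH-WT against 44 in the main setting, took their place, and this and the removal of a transcript length trend were chosen after seeing the data. Members at an unadjusted p under 0.05, by limma, were 0 in VEH-CD against VEH-WT, beside 2020 of 17111 genes tested. In brackets after each member count is the count over all genes tested, out of 17111 unless another total is given. At a higher estimate there were 1 under quantile normalization (2072) and 2 with only the compared groups fitted (2616). With only genes of a CV under 20% there was 1, also higher (1710 of 11295). With the length trend removed there was 1 (2077 of 17090), at a lower estimate. Leaving out each mouse gave 0 to 41 (1243 to 2504). In VERCUR-CD against VERCUR-WT the length trend gave 1 (893 of 17090) and leaving out mice 0 to 2 (469 to 1452). In VERCUR-WT against VEH-WT the compared groups alone gave 1 (846). In VERCUR-CD against VEH-CD leaving out mice gave 0 to 1 (304 to 2320). In VERCUR-CD against VEH-WT the count of 1 (1485) became 2 with the compared groups alone (1215) and 0 without the intensity trend (1456). Leaving out mice made it 0 to 14 (896 to 1983). CD against WT over both treatments had 1 with a CV under 20% (1363 of 11295) and 0 to 16 leaving out mice (1192 to 2664). With the length trend removed it had 3, of which 2 were higher and 1 lower (1912 of 17090). The interaction had 0 to 7 leaving out mice (700 to 1969). The largest counts came without VEH-CD replicate 2, at 41 (2504), 16 (2039), 7 (1252) and, for VERCUR-CD against VEH-CD, 1 (710). Without VERCUR-CD replicate 2 they were 14 (1952), 14 (2664) and 2 (885). With a replicate block the count was 4 in VEH-CD against VEH-WT (2089) and 3 in CD against WT (1706). Replicate numbers were not taken as pairs in the main setting. Deviations of same-numbered mice correlated from -0.35 to 0.27 over all genes and from -0.71 to 0.83 over the members. With 3 mice in a group, these values cannot decide whether mice were paired. The members' median log2 fold change ranged from 0.054 to 0.21 leaving out mice and from 0.029 to 0.13 otherwise in VEH-CD against VEH-WT. It changed sign leaving out mice in VERCUR-CD against VERCUR-WT (-0.050 to 0.090), VERCUR-CD against VEH-CD (-0.13 to 0.051) and VERCUR against VEH over both genotypes (-0.027 to 0.057), and with the length trend removed in VERCUR-CD against VEH-CD (0.0090) and the interaction (0.0032). The cause was not tested.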
